A study of Mus musculus with 12 samples.

Results

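Arf4, Arih2, Atp7a, Cbr1, Cbr3, Arg2, Arid3b and Bcl2l13 are 8 genes of mouse striatum whose transcripts were moderately higher 1 hour after cocaine and which are not among the classical immediate early genes. They were chosen because their signals rose with cocaine over both genotypes of the study, with the larger rise in SRF mutants. Those values are therefore given as a description, and calls made on them are not a separate test. The array annotation tied 16 probe sets to exactly 1 of these symbols, of 22690 in all. A gene is represented by its brightest probe set above a filter on dim signals, and is called where the limma p adjusted over all tested probe sets is under 0.05. The 8 were among 154 genes called higher with cocaine over both genotypes, 2.32% of the 6651 tested, where by size of change they ranked from 35 (Atp7a) to 127 (Bcl2l13).

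The study used cocaine-treated SRF mutants, saline-treated SRF mutants, cocaine-treated controls and saline-treated controls, with 3 arrays in each group and 1 animal per array. Cocaine was given intraperitoneally at 25 mg/kg. All animals were female littermates 10 to 15 weeks old, housed alone and handled for 5 days, and the striatum with the nucleus accumbens was taken for total RNA. SRF is the serum response factor. Neither the altered part of Srf nor the cells or promoter concerned are stated in the labels, and the strain is not given in the sources used here. Groups come from the sample titles. The description field names other groups for most arrays, and the treatment text of every sample, the saline ones included, mentions cocaine. The Srf probe set above the filter read 5.01 to 5.49 on mutant arrays and 6.97 to 7.21 on control arrays, which fits the titles and not the descriptions. Nothing beyond the titles' term biological replicate says how the animals were drawn, so the p-values measure the spread between these samples.

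All values are log2 signals of the authors' normalised data, so a difference of 1 is a doubling, and signals near or under 4 lie close to background, where differences are compressed. Any 2 arrays of a group had an r of 0.986 to 0.993, and arrays of different groups 0.976 to 0.990. Of 11 listed medium spiny neuron markers, 7 had a tested probe set, led by Penk, Tac1 and Ppp1r1b, and no probe set of the cortical markers passed the filter (4 of 7 are on the array). The summed signal of the medium spiny neuron markers was 13.17 to 13.31 in mutants and 13.06 to 13.15 in controls, with Pdyn, Penk and Tac1 called higher and Rgs9 called lower in mutants. Its part in the differences between genotypes was not tested. In tissue, fewer cells of a type and less RNA per cell cannot be told apart. On brightest probe sets, the astrocyte, oligodendrocyte, microglia and endothelial markers had 0 genes called by limma for cocaine or genotype (at an unadjusted p under 0.05, 1 astrocyte gene in each comparison and 0 of the others). Of all 11102 tested probe sets, 1273 passed that unadjusted threshold for cocaine and 2602 for genotype. The astrocyte median between genotypes was −0.03. The astrocyte gene Gfap read 4.71 to 5.58 in saline-treated mutants and 4.23 to 4.30 in saline-treated controls. After cocaine it read 3.58 to 4.26 in mutants and 3.81 to 4.19 in controls. Its second probe set read 4.20 to 4.98 in saline-treated mutants and 3.08 to 3.46 in saline-treated controls. The part of Gfap was not tested. Ttr, a choroid plexus transcript, read 9.61 in replicate 3 of the cocaine-treated controls and 2.83 to 5.90 on the other 11 arrays. Without that array the cocaine responses of the 8 genes in controls were 0.19 to 0.70, against 0.18 to 0.67 with it, and that of Bcl2l13 moved most in proportion, to 0.28 without it against 0.18 with it.

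Cocaine blocks dopamine reuptake, and in striatal medium spiny neurons the resulting D1 receptor signal reaches the nucleus through cyclic AMP and MAP kinases. Immediate early genes such as Fos answer within minutes through SRF, its ETS-domain partners and CREB, without new protein synthesis. The proteins encoded by the 8 genes have unlike roles. Arf4 is a small GTPase that acts in vesicle formation at the Golgi, and Arih2 is an RBR-type ubiquitin ligase that works with neddylated cullin ligases. Atp7a is the copper-transporting ATPase that is defective in human Menkes disease. Arg2 is the mitochondrial arginase, which turns arginine into ornithine and urea and draws on the substrate of nitric oxide synthases. Cbr1 and Cbr3 are NADPH-dependent carbonyl reductases encoded by neighbouring genes, Bcl2l13 is a BCL2-like protein of the outer mitochondrial membrane that acts as a mitophagy receptor, and Arid3b is a DNA-binding protein with an AT-rich interaction domain.

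Promoter sequences were searched because the members share an order of group levels, for which they were chosen. RefSeq windows (build GRCm38.p6, 250 bases before to 50 after an annotated start) were found for 7 of the 8 genes, Arg2 having no entry, and 5 of the 7 held the core of the cyclic AMP response element, TGACG, on either strand. The other motifs searched on both strands were the full element TGACGTCA, which contains that core, the CArG box bound by SRF, the antioxidant element core TGACNNNGC, the AP-1 site TGANTCA, the EGR site GCGNGGGCG and the ETS site CCGGAAG. The 5 windows with the TGACG core are given here from 150 bases (Arid3b from 250 bases) before to 20 bases after the start, 5′ to 3′ on the gene's strand, with TGACG or its reverse complement and the CArG box in capitals.
Arid3b (chr9:57836760-57837029, minus strand): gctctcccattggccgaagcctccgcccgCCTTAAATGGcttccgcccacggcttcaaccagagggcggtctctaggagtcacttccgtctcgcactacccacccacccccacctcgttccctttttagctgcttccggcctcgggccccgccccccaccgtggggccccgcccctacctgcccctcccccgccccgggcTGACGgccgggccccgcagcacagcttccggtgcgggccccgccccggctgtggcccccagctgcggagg
Atp7a (chrX:106027074-106027243, plus strand): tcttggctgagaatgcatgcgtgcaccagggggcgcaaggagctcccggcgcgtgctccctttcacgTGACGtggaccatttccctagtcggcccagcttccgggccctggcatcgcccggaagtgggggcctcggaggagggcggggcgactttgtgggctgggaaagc
Bcl2l13 (chr6:120836080-120836249, plus strand): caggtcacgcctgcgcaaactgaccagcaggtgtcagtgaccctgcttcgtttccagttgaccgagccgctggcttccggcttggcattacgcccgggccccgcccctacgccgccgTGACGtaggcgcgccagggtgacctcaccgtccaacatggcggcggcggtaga
Arih2 (chr9:108649389-108649558, minus strand): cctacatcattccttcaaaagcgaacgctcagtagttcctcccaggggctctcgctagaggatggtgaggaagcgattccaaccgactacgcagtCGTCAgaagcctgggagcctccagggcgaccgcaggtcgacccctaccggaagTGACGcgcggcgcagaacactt
Arf4 (chr14:26637984-26638153, plus strand): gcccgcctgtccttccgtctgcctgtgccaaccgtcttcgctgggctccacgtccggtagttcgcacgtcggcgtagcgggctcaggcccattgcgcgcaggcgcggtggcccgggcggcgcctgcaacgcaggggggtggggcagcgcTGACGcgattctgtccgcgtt

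The core began 83 bases before the start in Atp7a, 50 in Arid3b, 33 in Bcl2l13, 55 and 2 in Arih2, and 1 in Arf4. The core of Arf4 and the nearer core of Arih2 span the start. TGACG is a common run of letters: it was in 20.8% of all 32851 windows, in the windows of 39.3% of 5445 tested genes and in those of 64.3% of 126 genes called higher with cocaine. Arid3b was the member with a CArG box, at 221 bases before the start, and such a box was in 1.63% of all windows, in those of 1.78% of tested genes and in those of 3.17% of the genes called higher with cocaine. The ETS site was in 4 members (Arid3b, Arih2, Atp7a and Bcl2l13) and in 8.86% of all windows, in those of 22.9% of tested genes and in those of 25.4% of the genes called higher with cocaine. The antioxidant core was in Bcl2l13, in 12.4% of all windows, in those of 17.1% of tested genes and in those of 27% of the genes called higher with cocaine, with no overlap with its TGACG. The full cyclic AMP element (1.79% of all windows, 3.95% of tested genes), the AP-1 site (7.81% and 5.9%) and the EGR site (5.55% and 13.6%) were in 0 of the 7 members with a window. A match is a description of letters, and Arih2 and Arid3b have a further annotated start whose window holds none of these motifs.

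The membrane traffic gene Arf4 and the ubiquitin ligase gene Arih2 had bright probe sets and a larger change in mutants, by 0.50 for Arih2 and 0.51 for Arf4. Arih2 read 9.11, 9.08 and 8.90 in cocaine-treated mutants and 8.27, 8.21 and 8.27 in saline-treated mutants. In controls it read 8.53, 8.55 and 8.43 after cocaine and 8.23, 8.29 and 8.15 after saline. All 6 cocaine arrays lay above all 6 saline arrays, and the cocaine-treated mutants stood apart from every other array. The change was 0.78 in mutants (1.71-fold) and 0.28 in controls (1.21-fold), with standard errors of 0.0798 each.

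Arf4 read 9.41, 9.11 and 9.17 in cocaine-treated mutants, against 8.45, 8.50 and 8.57 in saline-treated mutants. In controls it read 8.65, 8.47 and 8.60 after cocaine and 8.46, 8.32 and 8.31 after saline, 2 groups that almost touch. The saline-treated mutants overlapped the cocaine-treated controls. The change with cocaine was 0.72 in mutants (SE 0.0928, 1.65-fold) and 0.21 in controls (SE 0.0928, 1.16-fold).

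The copper transporter gene Atp7a had the largest change of the 8 on its brightest probe set. It read 5.42, 4.86 and 5.16 in cocaine-treated mutants and 3.68, 4.06 and 3.92 in saline-treated mutants, against 4.63, 4.52 and 4.46 in cocaine-treated controls and 4.05, 3.78 and 3.76 in saline-treated controls. All cocaine arrays exceeded all saline arrays, and the saline arrays of both genotypes shared a range of 3.68 to 4.06, near the filter. The change was 1.26 in mutants (SE 0.139, 2.4-fold) and 0.67 in controls (SE 0.139, 1.59-fold).

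Arg2, the arginase gene, was on the brightest probe sets the member whose saline-treated mutants all lay above the saline-treated controls. It read 6.48, 6.71 and 6.54 in cocaine-treated mutants and 5.74, 5.75 and 5.55 in saline-treated mutants. In controls it read 5.79, 5.61 and 5.82 after cocaine and 5.48, 5.11 and 4.91 after saline. Saline-treated mutants thus overlapped cocaine-treated controls, while the saline groups of the 2 genotypes did not overlap. The change with cocaine was 0.90 in mutants (SE 0.130, 1.86-fold) and 0.57 in controls (SE 0.130, 1.49-fold).

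The carbonyl reductase genes had small changes. Cbr1 read 8.19, 8.29 and 8.06 in cocaine-treated mutants and 7.69, 7.69 and 7.63 in saline-treated mutants, and in controls 7.77, 7.99 and 7.80 after cocaine and 7.85, 7.63 and 7.55 after saline. The control groups overlapped and the mutant groups did not. The change was 0.51 in mutants and 0.18 in controls (SE 0.0962 each), and the control value was 0.11 without replicate 2 of the cocaine-treated controls and 0.12 without replicate 3 of the saline-treated controls.

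Cbr3 was the member whose saline-treated mutants lay below the saline-treated controls. It read 8.22, 8.26 and 8.24 in cocaine-treated mutants and 7.76, 7.67 and 7.66 in saline-treated mutants, against 8.13, 8.22 and 8.13 in cocaine-treated controls and 7.94, 8.03 and 7.98 in saline-treated controls. After cocaine the genotypes met at nearly the same level, so the larger rise in mutants (0.55 against 0.18 in controls, SE 0.0690 each) began from a lower saline level. The paralogous genes rose by similar amounts but differed in that saline level: mutants minus controls under saline was −0.01 for Cbr1 and −0.29 for Cbr3. By limma, the saline difference was called for Cbr3 (adjusted p = 0.0417) and not for Cbr1 (adjusted p = 0.977). Over all 11102 tested probe sets 331 were called under saline. The saline difference includes the quantity the genes were chosen on and is given as a description.

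Bcl2l13 and Arid3b were dim, and their control groups overlapped. Bcl2l13, the mitophagy receptor gene, read 5.11, 4.78 and 4.80 in cocaine-treated mutants and 4.31, 4.49 and 4.38 in saline-treated mutants. Its controls read 4.92, 4.65 and 4.49 after cocaine and 4.49, 4.52 and 4.51 after saline and overlapped. The change was 0.51 in mutants and 0.18 in controls (SE 0.116 each), and the control value was 0.06 without replicate 1 of the cocaine-treated controls and 0.28 without replicate 3.

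Arid3b read 4.07, 4.08 and 3.80 in cocaine-treated mutants, against 3.06, 3.15 and 3.37 in saline-treated mutants, and in controls 4.10, 3.46 and 3.44 after cocaine and 3.11, 3.52 and 2.94 after saline. The mutant groups were apart and the control groups overlapped. The change was 0.79 in mutants and 0.48 in controls (SE 0.182 each). It passed the filter on 3 arrays, all treated with cocaine, so it could be tested only because it was higher there.

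**Figure D1:**
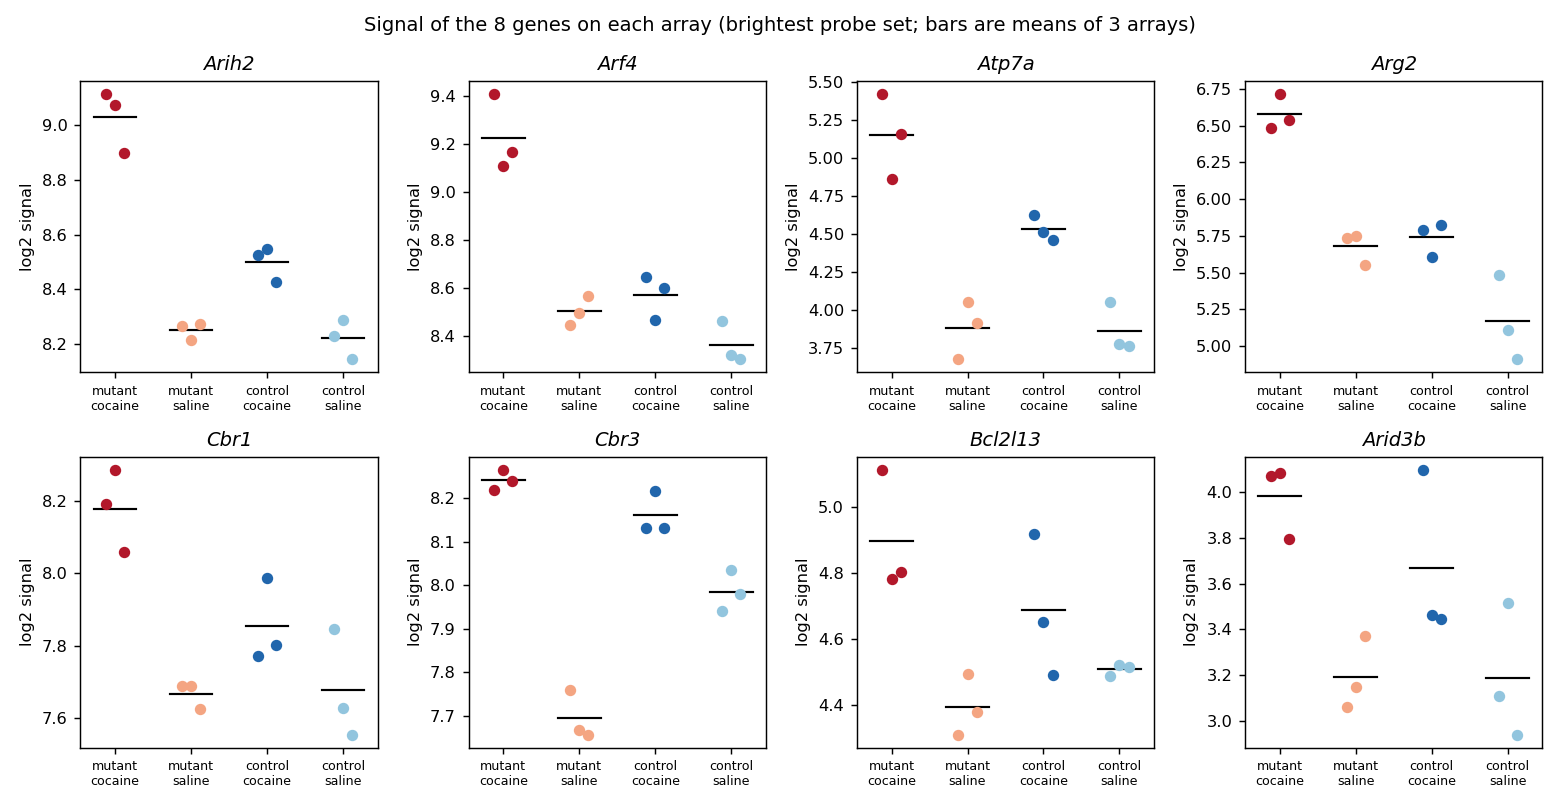
Log2 signal of the brightest probe set of each gene (vertical axes, each with its own range) on every array of the 4 groups (horizontal axes); points are arrays and bars are means of 3. Cocaine-treated mutants have the highest mean in 8 of 8 panels, and Cbr3 is the gene whose saline-treated mutants lie below the saline-treated controls.

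Across the 8 genes the order of group means was nearly the same. Cocaine-treated mutants were highest and cocaine-treated controls second in 8 of 8. The third place went to saline-treated mutants in 5 genes and to saline-treated controls in 3 (Cbr1, Cbr3 and Bcl2l13). The mutant groups did not overlap in 8 of 8 genes, where 8.36% of all tested genes had every cocaine-treated mutant array above every saline-treated one. The control groups did not overlap in 5 of 8 (Arih2, Arf4, Atp7a, Arg2 and Cbr3), against 6.89% of all tested genes. The first and second groups overlapped in Bcl2l13 and Arid3b, and in Cbr3 they were separated by less than 0.01. Since the genes were chosen for this order, the counts describe the choice. All 6 cocaine arrays exceeded all 6 saline arrays in Arih2, Atp7a and Cbr3, against 1.28% of all tested genes.

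Compared with the immediate early genes, the 8 genes moved little and in another proportion between genotypes. Their change over both genotypes ranged from 0.34 to 0.97 with a median of 0.50, whereas 15 tested immediate early genes, Fos, Arc and Junb among them, had a median of 2.01 and a range of 0.11 to 3.90. The 132 other genes called higher with cocaine, neither members nor listed immediate early genes, had a median of 0.52, so the members were ordinary in size among them. The difference between the responses, mutants minus controls, was 0.31 to 0.59 in the 8 genes, with a median of 0.35. By limma, the rise within mutants passed the threshold in 8 of the 8 genes and the rise within controls in 0. The difference between the responses passed it in 0 of the 8, so the larger rise in mutants rests on no single gene's test. Over all 11102 tested probe sets, 195 were called higher with cocaine within mutants and 50 within controls. The difference between the responses was called in 8 of the 11102. Calls were thus fewer in controls over the whole array, and the counts of members describe the choice. For Arid3b this difference was 0.31, but 0.20 with replicate 3 of the cocaine-treated controls left out and 0.15 with saline control replicate 2 left out. For Arg2 it was 0.33, but 0.17 with saline control replicate 1 left out. It was positive in 107 of the 132 other genes, with a median of 0.24, and in 6 of the 15 immediate early genes, with a median of −0.41. Over all tested genes that median was −0.01. These medians were not tested against each other, because the members were chosen on both quantities.

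**Figure D2:**
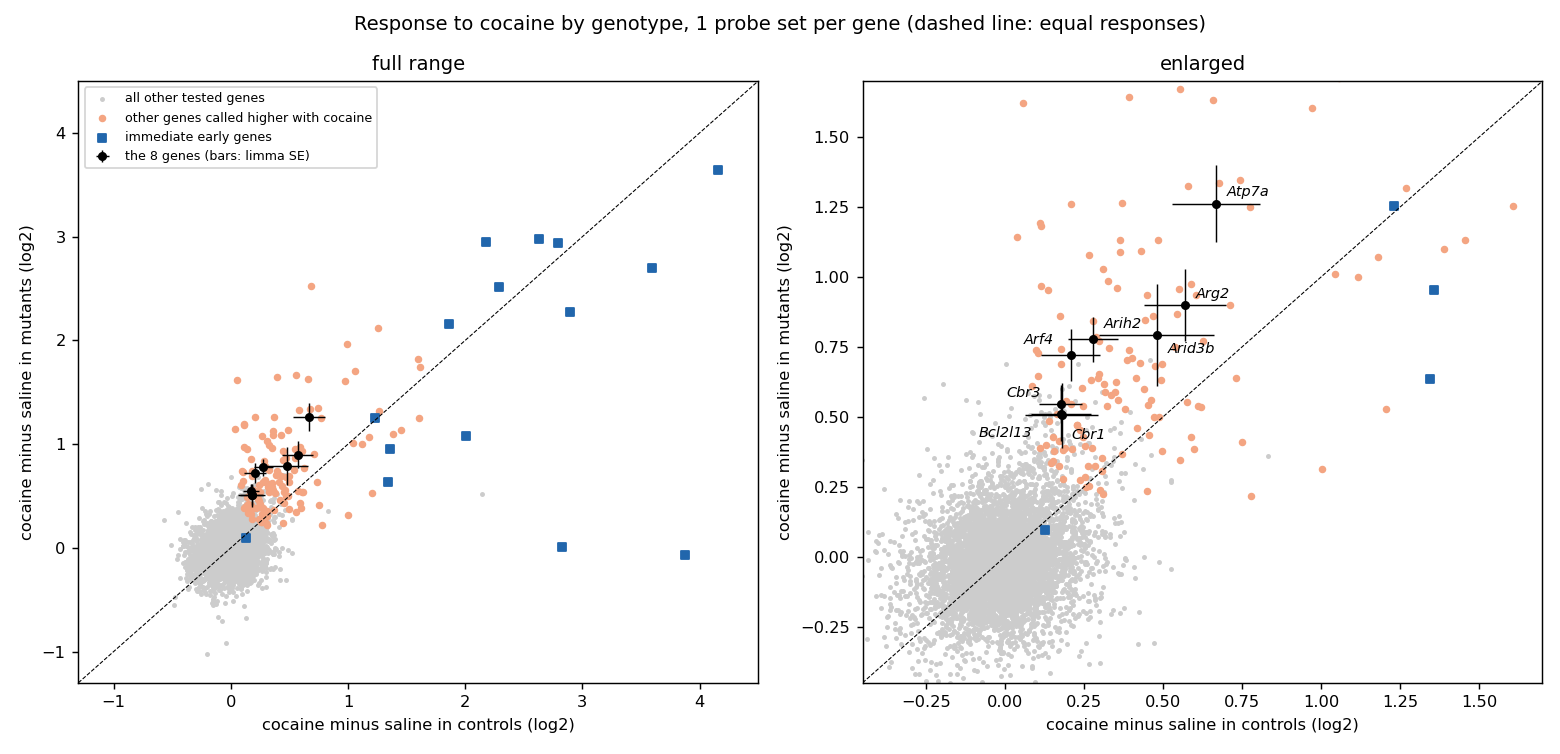
Log2 change with cocaine in mutants (vertical axis) against that in controls (horizontal axis) for each tested gene, over the full range (left) and enlarged (right), with limma standard errors for the 8 genes. The 8 genes lie above the line of equal responses, between 0.51 and 1.26 in mutants and between 0.18 and 0.67 in controls, and 14 of the 15 immediate early genes lie to their right, at 1.23 or more in controls.

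Further probe sets of the same genes gave the same direction with other sizes. Of the 16 probe sets, 15 passed the filter and 14 were called higher with cocaine (2.11% of all tested probe sets). All 15 had a positive change in both genotypes and the larger one in mutants. The genes were chosen for both traits, so these counts describe the choice. The remaining Arf4 probe set stayed at 2.75 to 2.85 on every array, at background. For Arih2, 4 probe sets gave changes of 0.55 to 0.83 in mutants and 0.28 to 0.47 in controls, and the dimmest of them exceeded 4 on cocaine arrays only. For Arf4, 3 probe sets gave 0.45 to 0.79 in mutants and 0.04 to 0.38 in controls.

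The second probe sets of Atp7a and Arg2 gave smaller changes. That of Atp7a read 5.22, 4.77 and 4.0 in cocaine-treated mutants, against 3.80, 3.96 and 4.19 in saline-treated mutants, with overlap, and its change of 0.68 in mutants and 0.18 in controls had standard errors of 0.237. That of Arg2 read 5.77, 5.76 and 6.01 in cocaine-treated mutants, 5.25, 5.31 and 5.13 in saline-treated mutants, 5.15, 5.01 and 5.06 in cocaine-treated controls and 4.81, 4.96 and 4.95 in saline-treated controls. On it Arg2 kept the separation of the saline groups by genotype. The change on it was 0.62 in mutants and 0.17 in controls. The brightest probe set of Arih2, the dimmest tested and the untested ones of Arf4 and the second of Arg2 are of designs (x_at, s_at) that can also bind other transcripts.

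**Figure D3:**
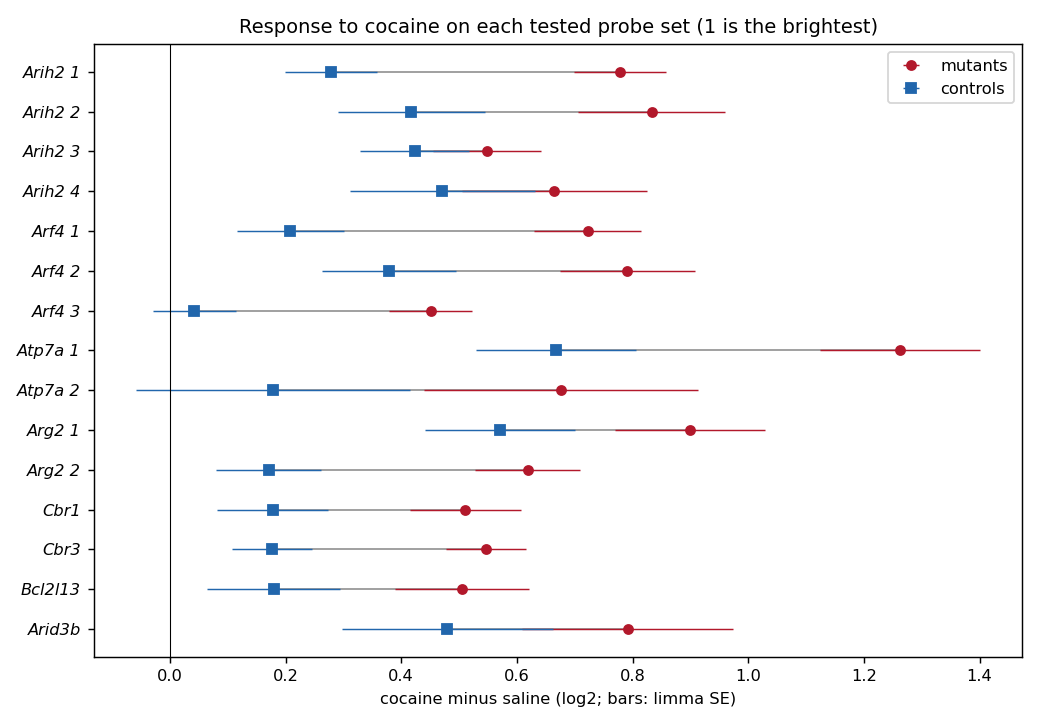
Log2 change with cocaine (horizontal axis, limma standard errors) in mutants and controls on each of the 15 tested probe sets (vertical axis; 1 is the brightest of a gene). On every probe set the mutants' change exceeds the controls', by the smallest amount on the third probe set of Arih2 (0.55 in mutants, 0.42 in controls).

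The difference between mutants and controls averaged over treatments was not used to choose the genes. Its sampling error is independent of that of both quantities that were, apart from the estimate of spread, which they share. Its size is not independent: a gene with equal saline levels and a larger rise in mutants is also higher in mutants on average. For genes whose saline groups were alike, a call is therefore not separate from the choice. By limma with Benjamini-Hochberg adjustment over 11102 probe sets, 3 of the 8 genes were higher in mutants, Arg2, Arf4 and Arih2, and 0 were lower. Over all tested genes 10.7% were called in either direction and 4.77% as higher. At an unadjusted p under 0.05, Atp7a and Cbr1 were also higher and 0 were lower. That looser threshold was passed by 2602 of the 11102 probe sets, in either direction. The members' median of 0.22 was near that of the 132 other genes called higher with cocaine (0.23, positive in 112), against −0.02 over all tested genes. Arg2 was 1.60-fold higher (log2 change 0.67, SE 0.0918, adjusted p = 0.00045). Arf4 was 1.32-fold higher (0.40, SE 0.0656, adjusted p = 0.0020). Arih2 was 1.21-fold higher (0.28, SE 0.0564, adjusted p = 0.00705).

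The other members were not called. Atp7a read 0.32 (SE 0.0981, adjusted p = 0.0618), Cbr1 0.16 (adjusted p = 0.180), Arid3b 0.16 (adjusted p = 0.499), Bcl2l13 0.05 (adjusted p = 0.771) and Cbr3 −0.10 (adjusted p = 0.217), all limma. Atp7a was called by limma under 5 alternatives: array weights (adjusted p = 0.0196), quantile normalisation (0.0487), and without replicate 2 of the cocaine-treated mutants (0.0201), replicate 1 of the saline-treated mutants (0.0411) or replicate 1 of the saline-treated controls (0.0391). Its adjusted p lay within a range of 0.0196 to 0.161 over all alternatives. Of the 15 tested probe sets 7 were called higher (4.41% of all tested probe sets). The call of Arg2 held on its second probe set (0.55, adjusted p = 0.000148) and that of Arf4 on its other 2 tested probe sets (0.45 and 0.26). For Arih2, 2 of 4 probe sets were called, and its second brightest read 0.28 at an adjusted p of 0.0733.

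On the brightest probe sets the averaged difference had a different make-up in each of the 3 genes. In Arg2 it was 0.84 after cocaine and 0.51 after saline, and the saline value was not called (limma adjusted p = 0.0558). In Arf4 it was 0.65 after cocaine and 0.14 after saline, and in Arih2 0.53 and 0.03, so that for Arih2 the saline groups were at 8.25 ± 0.0324 in mutants and 8.22 ± 0.0713 in controls (SD, n = 3 each). The saline values of Arf4 (limma adjusted p = 0.524) and Arih2 (limma adjusted p = 0.905) were not called. The averaged calls of Arf4 and Arih2 are therefore not separate from the choice. These separate values include the quantity the genes were chosen on and are given as a description. In 0 of the 8 genes did all 6 mutant arrays exceed all 6 control arrays (2.21% of all tested genes).

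**Figure D4:**
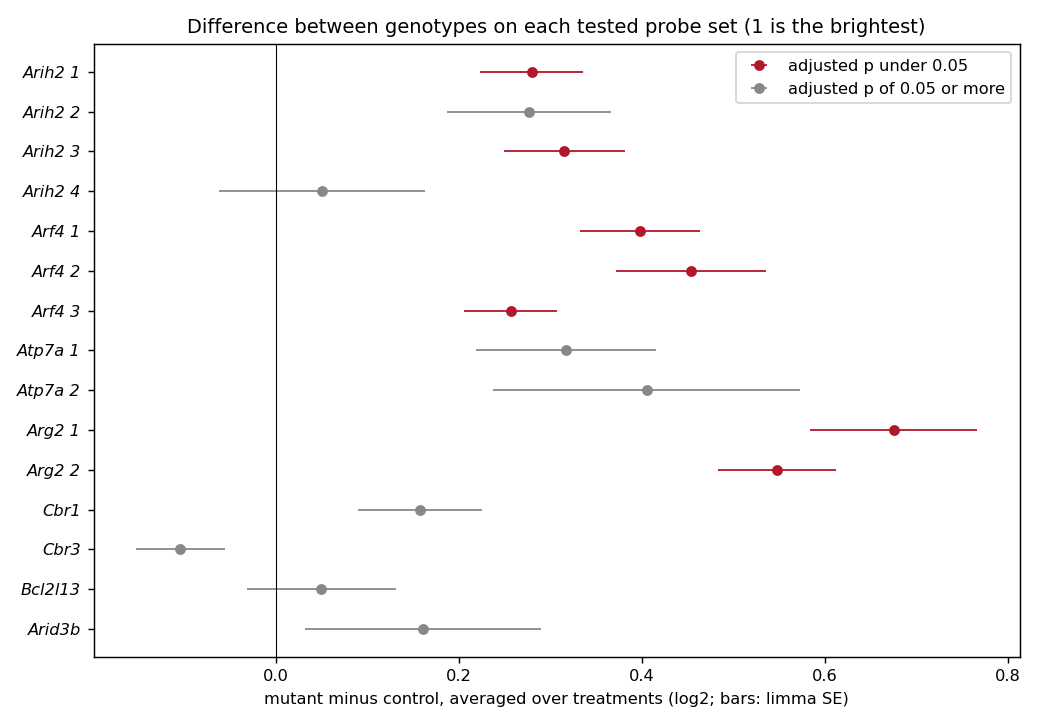
Mutant minus control averaged over treatments (horizontal axis, log2, limma standard errors) on each of the 15 tested probe sets (vertical axis; 1 is the brightest of a gene), with probe sets past the threshold in red. All tested probe sets of Arf4 (3) and Arg2 (2) and 2 of 4 of Arih2 pass the threshold.

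Relatives and pathway partners of the 8 genes were seldom called 1 hour after cocaine. Of 175 genes in 7 lists, chosen for the families and pathways of the members and without the members, 104 were tested. Of these 3 rose and 0 fell over both genotypes, or 2.88% against 2.53% of all tested genes. The median change was 0.01, against −0.01 over all tested genes. The share is near that of all genes and says nothing particular of the lists.

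The carbonyl and NRF2 list, the oxidative stress genes around the carbonyl reductases, had 2 risers of 21. Gclc, the catalytic subunit of the enzyme that limits glutathione synthesis, read 9.05, 8.69 and 8.65 in cocaine-treated mutants and 7.88, 7.79 and 7.86 in saline-treated mutants, against 8.03, 8.24 and 8.09 in cocaine-treated controls and 8.03, 7.95 and 7.97 in saline-treated controls. The cocaine-treated mutants stood above every other array, as for Arf4 and Arih2. Gclc rose by 0.54 over both genotypes (SE 0.0727, limma adjusted p = 0.000764), and its response was larger in mutants by 0.82, which did not pass the test (SE 0.145, limma adjusted p = 0.091). Txnrd1, a thioredoxin reductase gene, rose by 0.34 (SE 0.0564, limma adjusted p = 0.00471). Akr1a1, an aldehyde reductase gene and the brightest uncalled member, read −0.04.

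The BCL2 and mitophagy list had 1 riser of 15, the survival gene Mcl1, at 0.45 (SE 0.0725, limma adjusted p = 0.00349). Mcl1 was called on 3 of its 6 probe sets, and its change was 0.35 in mutants and 0.55 in controls. Gabarapl1, an autophagosome protein gene and the brightest uncalled member, read 0.05. At an unadjusted p under 0.05, 1273 of all 11102 tested probe sets passed for cocaine. The remaining lists had 0 genes called by limma for cocaine, with 2, 2, 2, 3 and 0 at an unadjusted p under 0.05 in the order given. These were ARF and COPI genes (22 tested, brightest Arf1 at 0.05), RBR and cullin ligases (18 tested, brightest Rnf14 at 0.02), copper handling (10 tested, brightest Prnp at −0.03), arginine, polyamine and nitric oxide metabolism (12 tested, brightest Oaz1 at −0.06) and ARID proteins (6 tested, brightest Arid1a at 0.06). No tested probe set represented every relative: the liver-type arginase gene Arg1, the copper ATPase gene Atp7b and the paralogue Arid3a were among the listed genes not tested.

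Between genotypes, 5 of the 104 genes were called (4.81%, against 10.7% of all tested genes). Gstp1, a glutathione transferase gene, was lower in mutants by the most (−0.81, SE 0.0617, limma adjusted p = 3.65e-06). The spermidine synthase gene Srm (−0.35, limma adjusted p = 0.0126) and Dhrs3 (−0.57, limma adjusted p = 0.034) were also lower. Gclc (0.27, limma adjusted p = 0.0357) and Dcun1d1, a cullin neddylation gene (0.23, limma adjusted p = 0.0355), were higher. The calls of Gclc, Dhrs3 and Dcun1d1 were each lost in 8 of the 12 fits without 1 array.

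Genes annotated next to the members were compared with them. Of 14 protein-coding neighbours that are no member, 9 were tested and 1 rose with cocaine, Pde12, a mitochondrial phosphodiesterase gene next to Arf4 (0.38, limma adjusted p = 0.0391), where 2.53% of all tested genes were called. That call was lost without the filter on dim probe sets (limma adjusted p = 0.128) and in 9 of the 12 fits without 1 array. Between genotypes 2 of the 9 were called, where 10.7% of all tested genes were. Pde12 was higher in mutants, as Arf4 was (0.32, limma adjusted p = 0.0356), and lost this call in 7 of the 12 fits without 1 array. Setd4, on the other side of Cbr1 from Cbr3, read 0.40 (limma adjusted p = 0.050035, short of the threshold), so that 3 adjacent genes had changes of 0.34 to 0.40. The SNARE gene Vti1b, annotated as overlapping Arg2, read 0.05 with cocaine and was lower in mutants (−0.23, limma adjusted p = 0.0154), opposite to Arg2. Dennd6a beside Arf4 read −0.03 and Clk3 beside Arid3b −0.01 with cocaine.

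Genes outside the lists followed the same pattern closely. Over the 12 arrays, the mean of the 8 centred signals correlated most with Zfp948 (Pearson's r = 0.984), Mest (0.979), Gnai3 (0.976), Trak1 (0.974) and Eprs (0.972) among the tested genes other than the members. Zfp948 encodes a zinc finger protein, Mest is an imprinted gene, Gnai3 encodes an inhibitory G protein subunit, Trak1 a kinesin adaptor for mitochondria and Eprs a transfer RNA synthetase. These genes changed by 0.69 to 2.12 with cocaine in mutants and by 0.18 to 1.25 in controls. The arrays share the 4 group levels, so a high r says that a gene has the same order of groups. After group means were subtracted, the same genes had r of 0.576 to 0.725 with the mean of the members.

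For single members the closest genes were Sstr2, a somatostatin receptor gene, for Arf4 (0.978), and the phosphatase gene Ppm1d for both Arih2 (0.982) and Cbr1 (0.959). They were the vascular growth factor gene Vegfa for Atp7a (0.976), Mtf1, a metal-responsive transcription factor gene, for Arg2 (0.968) and the kinase gene Mknk2 for Arid3b (0.929). They were Piga, a gene of GPI anchor synthesis, for Bcl2l13 (0.945) and the synaptotagmin gene Syt4 for Cbr3, the loosest match (0.886). None of these was on the list of immediate early genes. Each is the highest value over all tested genes on the same arrays and is given as a description.

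Among themselves the members were alike in their group levels and not in their residual variation. All 28 pairwise r over the 12 arrays were positive, from 0.492 (Cbr3 with Arg2) to 0.942 (Arf4 with Arih2), with a median of 0.828. The genes were chosen for similar group levels, so these values over the 12 arrays describe the choice. After group means were subtracted, the median was 0.115 and 19 of 28 were positive. Arf4 and Atp7a still varied together (0.799), and Atp7a with Bcl2l13 (0.673). Cbr3 ran opposite to Arf4 (−0.71) and Atp7a (−0.65), and the neighbours Cbr1 and Cbr3 had 0.169. Apart from the last, these were picked as the highest and lowest of the 28 pairs, and none was tested.

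**Figure D5:**
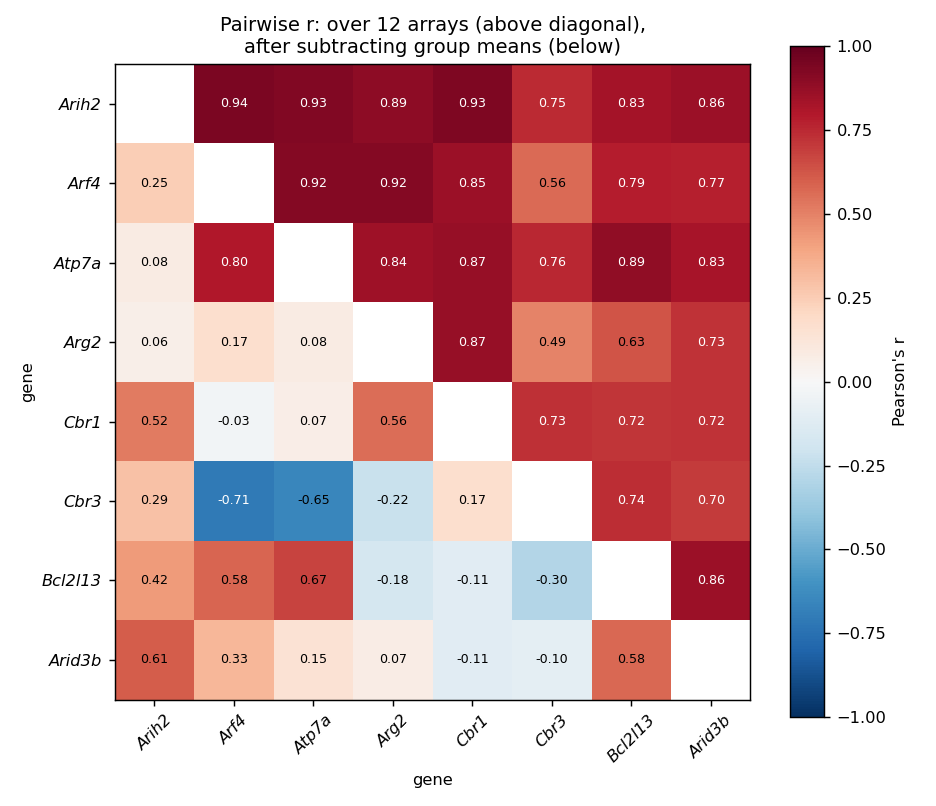
Pearson's r for each pair of the 8 genes (both axes) over the 12 arrays (above the diagonal) and after the 4 group means were subtracted (below it), on a colour scale from −1 to 1. Values above the diagonal run from 0.49 to 0.94, and below it from −0.71 to 0.80, with the negative end held by Cbr3.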

How the data were processed

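Groups, replicate numbers and treatments were taken from the sample titles. For every array the authors deposited a log2 signal for each probe set. The submitters' processing notes name GCRMA and R 2.4.1, without options or a log base, and log2 is inferred from the range of the values. Array medians were 3.75 to 3.78, so changes shared by every gene cannot be seen, and the number of arrays limits the precision. After 64 control probe sets were left out, probe sets over 4 on at least 3 of 12 arrays were tested (11102). limma 3.58.1 in R 4.3.3 was fitted to all arrays with a mean per group (8 residual and 4.71 prior degrees of freedom), with two-sided Benjamini-Hochberg adjustment and a threshold of 0.05. A gene is represented by its brightest single-symbol probe set in the platform annotation (20393 probe sets with 1 symbol, 691 with several, 1606 with none; 20364 of the first matched a RefSeq table of GRCm38.p6, used for names and neighbours, since the files name no build). The fit was tested on simulated data.

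The members, the lists and the tests were chosen with earlier results of these data known. Named genes were the members, Srf, for each list up to 4 called genes with the largest change and its brightest uncalled gene, the neighbours, the 5 genes most like the members' mean and the closest gene to each member; others were named after their values were seen. Motifs were chosen after the responses were known. Alternatives were no filter, a filter at 5, array weights, an intensity trend, quantile normalisation, a replicate block, other probe sets and leaving out each array. Same-numbered arrays showed little shared deviation: of 18 pairs of groups and numbers, 1 had a correlation over 0.1 (range −0.13 to 0.134). Arrays with different numbers were not compared, and a shared litter or day was not tested. The reported fit treats the animals as unpaired.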

Additional observations from a re-analysis of the deposited data

How the results depend on the processing

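The number of member genes called between genotypes was 3 in the reported fit and 2 to 4 under the alternatives, 2 with the next brightest probe sets, where Arih2 was not called, and 4 where Atp7a passed. Leaving out 1 array gave 3 to 4. With the replicate number as a block (replicate block), 3 members, 907 probe sets for genotype and 216 for cocaine were called; Gclc (adjusted p = 0.0541) and Dhrs3 (adjusted p = 0.0544) lost their genotype calls, and no other named call changed. Without 1 array the numbers of probe sets called were 805 to 1099 for genotype and 186 to 249 for cocaine, against 1051 and 257 in the reported fit, and 3 list genes were called for cocaine in every case. The second brightest probe set lowered the change of Atp7a with cocaine to 0.68 in mutants and 0.18 in controls and that of Arg2 to 0.62 and 0.17. The sign of 1 value turned: Bcl2l13 between genotypes was −0.0042 without replicate 1 of the cocaine-treated mutants, and 0.11 at the highest without 1 array, against 0.05 in the reported fit, none of them called. The cocaine responses of the 8 genes kept their direction in both genotypes under every alternative in which the gene was tested, and so did the larger response in mutants. Arid3b was tested in 9 of the 12 fits without 1 array. The size of the larger response in mutants was less steady. Without 1 array the difference between the responses was as low as 0.15 for Arid3b and 0.17 for Arg2, and the control response of Bcl2l13 ranged from 0.06 to 0.28. Bcl2l13, Arid3b and Atp7a lay too close to background for the filter at 5. Background correction could not be varied, and no scan date or slide is given in the sources used here.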
